A study of Homo sapiens with 9 samples.

Results

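MAP3K11, TAOK1, PAK4 and MTOR are intracellular (non-receptor) protein kinase genes that have been reported as targets of the microRNA miR-199a-3p. They were chosen by symbol for that reason, and all 4 were found among the 14812 genes measured, each with a single row on the array. WM266-4 is a human melanoma cell line established from a metastasis, and the cells used carry GFP. In 3 groups of 3 biological replicates they received, by Lipofectamine, a miR199a-3p mimic at 0.5 nM, the same mimic at 0.25 nM, or a ctrl miR at 0.5 nM. Total RNA collected after 48 h was hybridised to whole-transcript arrays. The 0.25 nM group thus has no control of its own dose, and the total amount of small RNA differs there along with the mimic.

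A microRNA guides an Argonaute complex to messenger RNAs that pair with its seed, the bases near its 5′ end, which lowers translation and often the level of the message. MAP3K11 (also MLK3) is a mixed-lineage kinase that phosphorylates the MAP2K enzymes upstream of JNK. TAOK1 is a Ste20-like kinase that acts on MAP2K enzymes upstream of the stress kinase p38, on the Hippo kinases and on microtubule regulators. PAK4 is an effector of the small GTPase CDC42 that acts on actin through LIM kinases. MTOR is the catalytic subunit of the complexes mTORC1 and mTORC2, which couple nutrients and growth factors to protein synthesis, autophagy and AKT activity. JNK, Hippo, actin and mTOR signalling all take part in the growth and movement of melanoma cells.

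The sequence that the transfected mimic is named for is shown first, because a microRNA pairs with its targets through the seed. Mature forms are from RefSeq on build GRCh38.p14, written 5′ to 3′ with the seed (bases 2 to 8) in capitals.
hsa-miR-199a-3p: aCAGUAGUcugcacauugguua
hsa-miR-199a-5p: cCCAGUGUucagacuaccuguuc
The 3p form is encoded at MIR199A1 (chr19:10817429-10817450, minus strand) and at MIR199A2 (chr1:172144554-172144575, minus strand), and hsa-miR-199b-3p from MIR199B on chromosome 9 has the same 22 bases. Among 2545 mature entries of that table, 3 names carry the seed CAGUAGU: hsa-miR-199a-3p, hsa-miR-199b-3p and hsa-miR-3129-5p. A message that pairs with the whole seed holds ACUACUG. The 5p arm of the same hairpin has another seed, CCAGUGU. The MIR199A1 hairpin is shown with the 3p arm in capitals, to place that arm beside its partner.
MIR199A1: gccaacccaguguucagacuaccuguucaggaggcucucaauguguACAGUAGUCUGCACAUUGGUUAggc
The 3p arm starts at base 47 of 71. The transfected product's own sequence is not given in the sources used here, and the target messages were not searched for the seed match here.

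Levels below are log2 intensities after each array was shifted to the same median, unless they are called deposited. Before that shift the median change over all genes was 0.099 at 0.5 nM and 0.14 at 0.25 nM against control, so every direction below is relative to the median gene. Array medians over all rows ranged from 4.94 to 5.21 as deposited. Exactly equal deposited values on all 3 arrays of a group were found in 48.6% of rows at 0.5 nM, 42% at 0.25 nM and 47.8% in control, and 0 values were equal between arrays of different groups. The error of the limma test on 9 arrays comes from replicates within a group, so with such ties its p-values understate how far groups can differ without a treatment effect. A further test therefore counted each group as 1 unit, with the error taken from the difference between the doses and moderated across genes (the group-level test). Of 10 melanocyte and melanoma markers, 9 were measured. Among them TYR was the brightest, at 12.68 on its lowest array, and S100A1 the dimmest, at 6.53. MITF was at 9.726, MLANA at 8.04 and PAX3 at 7.69 on their lowest arrays. Of 14 markers of other cell types, 7 were measured. KRT5, KRT14, KRT1, DSG3, VWF and DCN lay between 2.59 and 5.60, while CD68, also a general lysosomal protein, lay between 9.32 and 10.03. By the limma test 4 of the melanocyte markers were lower and 2 higher at 0.5 nM, and 5 lower and 2 higher at 0.25 nM; of the other markers 5 were lower and 2 higher at 0.5 nM, and 2 lower and 5 higher at 0.25 nM. Over all genes 29.8% passed as lower and 33.2% as higher at 0.5 nM, and 33.9% as lower and 30.3% as higher at 0.25 nM. As deposited, without the shift, the melanocyte markers gave 3 lower and 3 higher at 0.5 nM and 1 lower and 5 higher at 0.25 nM, and the other markers 4 lower and 3 higher at 0.5 nM and 1 lower and 6 higher at 0.25 nM. None of these 9 and 7 markers passed the group-level test by limma (0 and 1 at an unadjusted p under 0.05), and their part in the results was not tested.

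MAP3K11 was lower at both doses of the mimic. As deposited, it stood at 7.54 on all 3 arrays at 0.5 nM, at 7.39, 7.39 and 7.41 at 0.25 nM, and at 7.90 on all 3 control arrays. With arrays shifted the levels were 7.55, 7.53 and 7.53 at 0.5 nM, 7.33, 7.31 and 7.33 at 0.25 nM, and 7.98 on each control array. The 3 groups do not overlap: every 0.25 nM array was lowest, every control array highest, and the 0.5 nM arrays lay between them. The highest 0.5 nM array lay 0.435 below control and the highest 0.25 nM array 0.648 below it.

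At 0.5 nM MAP3K11 averaged 7.54 ± 0.0072, against 7.98 in control (SD, n = 3 each), a difference of -0.44 ± 0.0090 (SE; limma adjusted p = 1.21e-08). The deposited values tie exactly within each of these groups, so the SD of 0.0072 comes only from the array shifts. It does not measure how replicates vary. On the linear scale its signal fell by 26.4%. At 0.25 nM it averaged 7.33 ± 0.010 against the same 7.98 (SD, n = 3 each), a difference of -0.65 ± 0.0090 (SE; limma adjusted p = 2.31e-09), and the signal fell by 36.5%. Both doses are set against the same control arrays, so the pair of differences is not independent.

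Among all other genes, 5.33% had a lower difference than MAP3K11 at 0.5 nM and 2.12% at 0.25 nM. Among the 1000 genes nearest to it in level these shares were 3.70% and 0.40%. The central 95% of those 1000 genes ran from -0.49 to 0.43 at 0.5 nM and from -0.48 to 0.43 at 0.25 nM. MAP3K11 thus lay inside that range at 0.5 nM and below it at 0.25 nM. These ranks are a description, since the gene was picked with earlier results of these data known.

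TAOK1 was lower by a smaller amount. Its levels were 9.62, 9.70 and 9.65 at 0.5 nM, 9.47, 9.48 and 9.55 at 0.25 nM, and 9.83 on all 3 control arrays, which tie exactly. On the shifted arrays the groups again do not overlap, with 0.25 nM lowest and control highest. As deposited the doses overlap, with 9.63 for 0.25 nM replicate 3 against 9.62 for 0.5 nM replicate 1. At 0.5 nM TAOK1 averaged 9.66 ± 0.040, against 9.83 in control (SD, n = 3 each), a difference of -0.17 ± 0.026 (SE; limma adjusted p = 0.000837), and its signal fell by 11.1%. As deposited, without the shift, the 0.5 nM difference was -0.082 and missed the threshold (limma adjusted p = 0.0517; 0.000822 to 0.0517 over 18 alternatives). At 0.25 nM it averaged 9.50 ± 0.041 against that control (SD, n = 3), a difference of -0.33 ± 0.026 (SE; limma adjusted p = 2.10e-05), and the signal fell by 20.2%. Without the shift this difference was -0.17 and passed (limma adjusted p = 0.00233; 1.92e-05 to 0.00470 over 18 alternatives). Among the 1000 genes nearest in level, 14.7% had a lower difference at 0.5 nM and 4.90% at 0.25 nM, and TAOK1 lay inside their central 95% at both doses.

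PAK4 had the widest spread of the 4 genes. Its levels were 7.01, 6.87 and 6.87 at 0.5 nM for replicates 1 to 3, 6.77 and 6.69 at 0.25 nM for replicates 1 and 2, and 7.31, 7.01 and 7.04 in control. Replicate 1 was the highest array in each group. The 0.5 nM and control groups were separated by 0.0016 only, and as deposited they overlap, with 7.01 for 0.5 nM replicate 1 against 6.93 and 6.96 for control replicates 2 and 3.

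**Figure D1:**
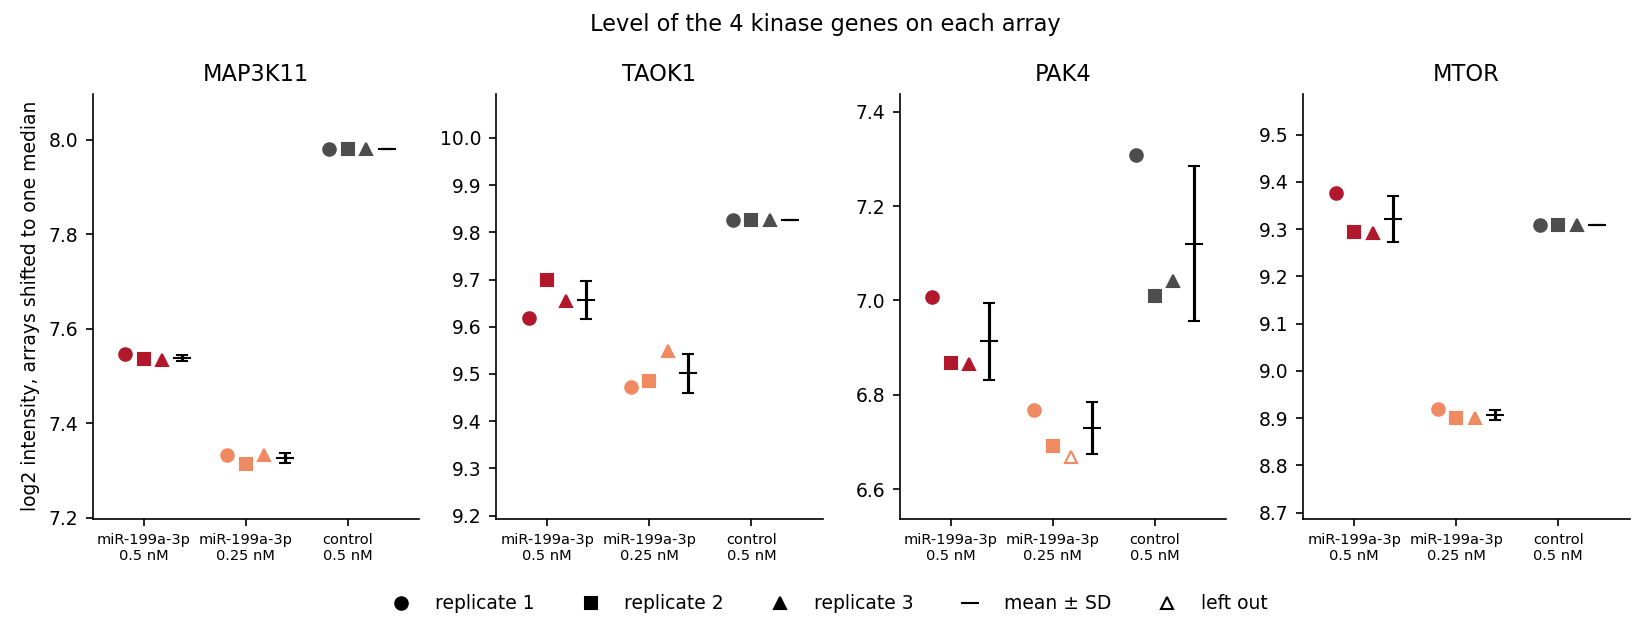
Log2 intensity of each gene (vertical axis, arrays shifted to the same median, each panel spanning the same range of log2 units) on every array of the 0.5 nM, 0.25 nM and control groups; symbols mark the replicate number and bars the mean ± SD. For MAP3K11 and TAOK1 the 0.25 nM arrays are lowest, the 0.5 nM arrays next and the control arrays highest, without overlap; MTOR is low at 0.25 nM, and PAK4 replicate 1 lies above replicates 2 and 3; the open symbol is the PAK4 value left out.

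The value of PAK4 on 0.25 nM replicate 3 was left out. In that column 0 values have a zero as first decimal, against 4178 to 4774 in the other columns, so that zeros after the point had been dropped, and values of fewer than 10 digits there cannot be read with certainty. The deposited PAK4 entry reads 6.75; with 1 zero restored it would be 6.07. Kept as it reads, it would lie at 6.67 after the shift, the lowest of its group.

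At 0.5 nM PAK4 averaged 6.91 ± 0.082, against 7.12 ± 0.16 in control (SD, n = 3 each), a difference of -0.21 ± 0.089 (SE) that missed the threshold (limma adjusted p = 0.0873). Blocked on the replicate number, the same difference passed (limma adjusted p = 0.0233; 0.00567 to 0.305 over 18 alternatives). At 0.25 nM it averaged 6.73 ± 0.055 (SD, n = 2) against that control, a difference of -0.39 ± 0.099 (SE; limma adjusted p = 0.0139), and the signal fell by 23.7%. With the uncertain value kept this difference was -0.41 (limma adjusted p = 0.00373). Without the shift it was -0.24 and missed the threshold (limma adjusted p = 0.0870; 0.00169 to 0.0870 over 18 alternatives), but passed without the shift when blocked on the replicate number, at -0.27 (limma adjusted p = 0.0239). On the shifted arrays the 0.25 nM difference missed the threshold without 0.25 nM replicate 2 (limma adjusted p = 0.0761), which leaves 1 array at that dose. Without replicate 1 of every group, an alternative chosen after seeing the data, the differences were -0.16 at 0.5 nM and -0.33 at 0.25 nM, and both passed (limma adjusted p = 0.00567 and 0.00169). Among all other genes 18.8% had a lower difference than PAK4 at 0.5 nM and 8.72% at 0.25 nM.

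MTOR was lower at 0.25 nM and close to control at 0.5 nM. Its levels were 9.38, 9.29 and 9.29 at 0.5 nM, 8.92, 8.90 and 8.90 at 0.25 nM, and 9.31 on all 3 control arrays. The 0.25 nM arrays lay 0.39 below control, while the 0.5 nM arrays lay on both sides of it. As deposited, the 0.25 nM arrays tie exactly at 8.98 and the control arrays at 9.23.

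At 0.25 nM MTOR averaged 8.91 ± 0.011, against 9.31 in control (SD, n = 3 each), a difference of -0.40 ± 0.023 (SE; limma adjusted p = 2.87e-06), and its signal fell by 24.3%. With the deposited values tied in both groups, the SD of 0.011 comes only from the array shifts. As deposited, this difference was -0.25 (limma adjusted p = 2.36e-05; 1.41e-07 to 0.000305 over 18 alternatives). At 0.5 nM it averaged 9.32 ± 0.049 (SD, n = 3), a difference of 0.012 (limma adjusted p = 0.674) with a 95% interval of -0.042 to 0.066. This small difference turned with the setting. As deposited it was 0.10 and passed as higher (limma adjusted p = 0.00297), without 0.5 nM replicate 1 it was -0.016 (limma adjusted p = 0.188), and without replicate 1 of every group it was -0.016 and passed as lower (limma adjusted p = 0.00289; up to 0.738 over 18 alternatives). Among the 1000 genes nearest in level 2.40% had a lower difference at 0.25 nM, against 53.2% at 0.5 nM.

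Counted together, 2 of the 4 genes passed the limma test at 0.5 nM, MAP3K11 and TAOK1, both lower. Of all genes tested there, 63.0% passed and 29.8% passed as lower. At 0.25 nM all 4 passed as lower, where 64.1% of all genes passed and 33.9% passed as lower. The calls as lower and higher over all genes were 4418 and 4918 at 0.5 nM and 5015 and 4483 at 0.25 nM, or 2975 and 6663 and 2531 and 7516 as deposited. Groups that do not overlap, with the mimic lower, were found for 3 of 4 genes at 0.5 nM and for 4 of 4 at 0.25 nM, against 34.8% and 39.1% of all genes. For PAK4 at 0.5 nM the gap was 0.0016 only, and its groups overlap as deposited. Passing this test or not overlapping is thus common on these arrays. With 4 genes, picked with earlier results of these data known, the counts at either dose cannot be told from these shares.

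**Figure D2:**
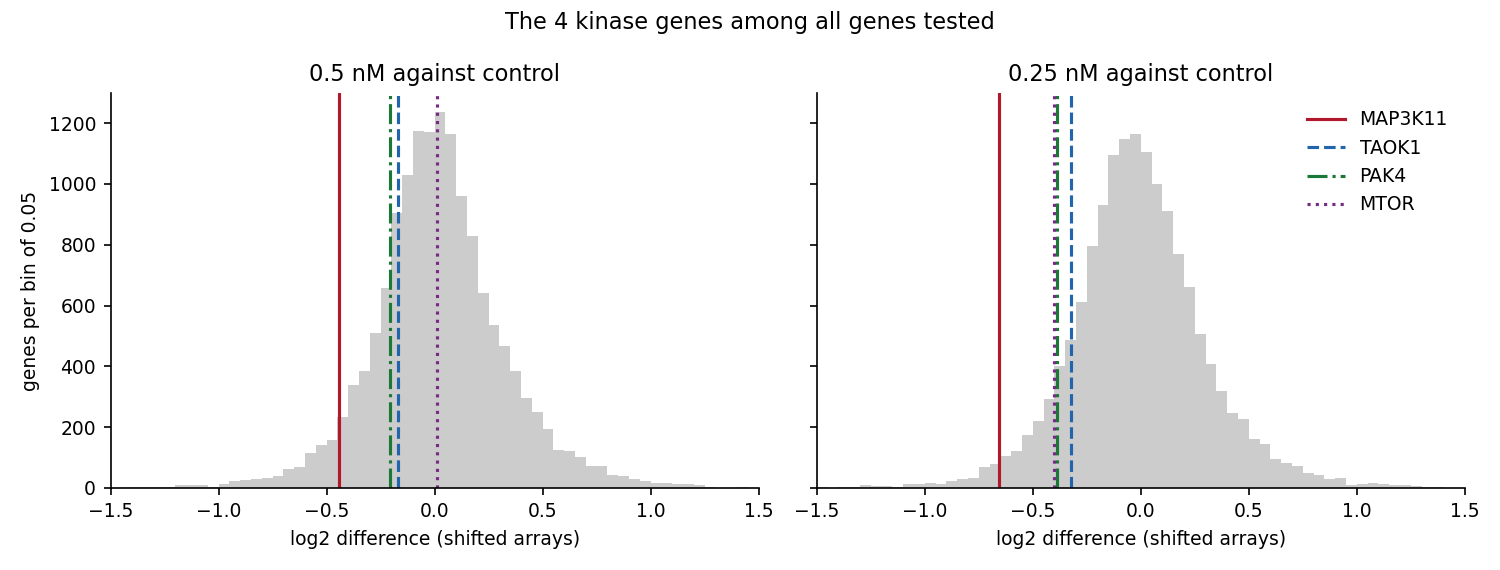
Number of genes (vertical axis) by log2 difference from control (horizontal axis, bins of 0.05) for 0.5 nM and 0.25 nM over 14812 genes, with a vertical line for each kinase gene. MAP3K11 lies in the lower tail at both doses, and the other 3 lie on the lower flank at 0.25 nM, while MTOR sits at the centre at 0.5 nM.

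In the group-level test by limma 0 of the 4 genes passed, and 1 (MAP3K11) had an unadjusted p under 0.05. Of all genes 0.122% (18) passed, 0.101% as lower, and 965 had an unadjusted p under 0.05. Averaged over both doses, MAP3K11 lay at 7.43, against 7.98 in control, a difference of -0.55 with a 95% interval of -0.89 to -0.20 (limma adjusted p = 0.353; 0.214 to 0.840 over 16 alternatives). TAOK1 lay at 9.58, against 9.83 in control, a difference of -0.25 with an interval of -0.51 to 0.013 (limma adjusted p = 0.808). PAK4 lay at 6.82, against 7.12 in control, a difference of -0.30 with an interval of -0.70 to 0.10 (limma adjusted p = 0.892). MTOR lay at 9.11, against 9.31 in control, a difference of -0.19 with an interval of -0.49 to 0.10 (limma adjusted p = 0.924). The interval of MAP3K11 alone lies below 0, and it is not adjusted for the number of genes. This test has 3 units in all and borrows most of its error from other genes (33.1 prior degrees of freedom), so a difference of the size of those of TAOK1, PAK4 and MTOR lies within its error.

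**Figure D3:**
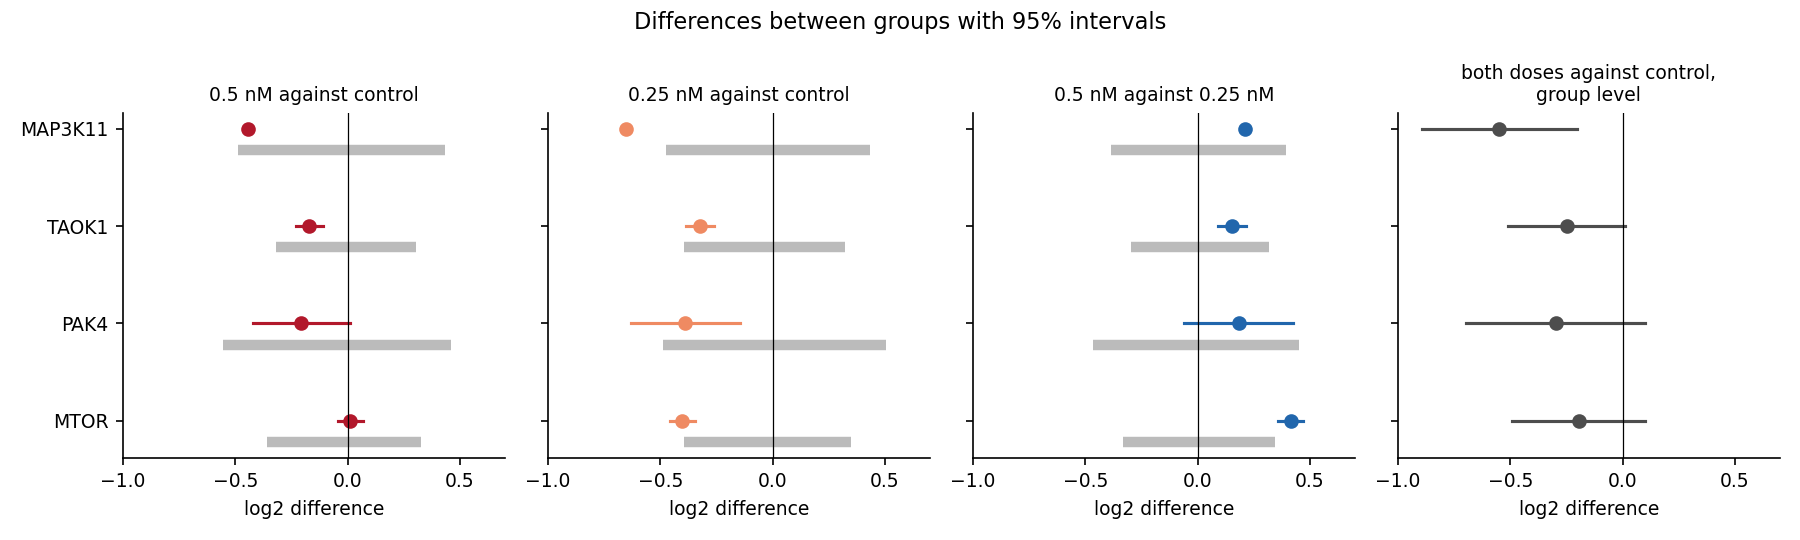
Log2 difference (horizontal axis) of each gene for 0.5 nM against control, 0.25 nM against control, 0.5 nM against 0.25 nM, and both doses against control in the group-level test; points are estimates, coloured lines 95% intervals and grey bars the central 95% of the 1000 genes nearest in level. The limma intervals over arrays are narrow beside the grey bars, except those of PAK4. Of those comparisons over arrays, the estimates of MAP3K11 and MTOR at 0.25 nM, and of MTOR between the doses, lie outside their grey bar. No grey bar is drawn for the group-level test.

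Between the doses, all 4 genes had the lower level at the lower dose. MTOR differed most, by 0.41 ± 0.023 (SE) for 0.5 nM minus 0.25 nM (limma adjusted p = 2.44e-06), a ratio of 1.33. MAP3K11 differed by 0.21 ± 0.0090 (SE; limma adjusted p = 5.54e-07) and TAOK1 by 0.15 ± 0.026 (SE; limma adjusted p = 0.00144). As deposited, TAOK1 differed by 0.087 (limma adjusted p = 0.0432; 0.000990 to 0.0438 over 18 alternatives). PAK4, at 0.18 ± 0.099 (SE), missed the threshold (limma adjusted p = 0.158), but passed at 0.22 when blocked on the replicate number (limma adjusted p = 0.0231; 0.00736 to 0.411 over 18 alternatives). It passed as well without control replicate 1, at 0.18 (limma adjusted p = 0.0310), and without replicate 1 of every group, at 0.18 (limma adjusted p = 0.00736). Thus 3 of 4 genes passed as higher at 0.5 nM, where 62.2% of all genes passed either way and 35.1% passed as higher. On the shifted arrays all 4 genes had groups that do not overlap, against 40.5% of all genes with 0.5 nM wholly above 0.25 nM. The doses overlap for TAOK1 as deposited. Over all genes 4015 passed as lower and 5196 as higher at 0.5 nM, or 5321 and 3961 as deposited. Among the 1000 genes nearest in level, 99.2% had a smaller difference than MTOR, 85.0% than MAP3K11 and 83.6% than TAOK1.

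The replicates of MAP3K11 and MTOR differed by little beside these steps. This does not hold for PAK4, nor for TAOK1. With a step of 0.15 for TAOK1, the nearest arrays of the doses lay 0.069 apart after the shift. Many of the deposited values tie exactly, though, and a tie does not measure how well replicates agree. MAP3K11 ties on all 3 arrays at 0.5 nM and in control, and on 0.25 nM replicates 1 and 2. TAOK1 ties in control, and MTOR at 0.25 nM and in control. The deviations from the group mean, which include the array shifts, were at most 0.012 for MAP3K11 in any group. For TAOK1 they reached 0.047, on 0.25 nM replicate 3, with replicate 1 the lowest array at both doses. For MTOR they reached 0.056, on 0.5 nM replicate 1. For PAK4 replicate 1 lay above its group mean by 0.094 at 0.5 nM, 0.039 at 0.25 nM and 0.19 in control.

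The listed relatives of each kinase that were measured were set beside it, first the other mixed-lineage kinases of the list. MAP3K9 lay at 6.96 at 0.5 nM, 6.66 at 0.25 nM and 6.86 in control, differences of 0.098 and -0.20 that both passed the limma threshold. MAP3K13 likewise passed in opposite directions, at 0.090 and -0.14, but as deposited it lay at 0.020 at 0.25 nM and missed the threshold there (limma adjusted p = 0.228). MAP3K12, the neuronal stress kinase DLK, rose at 0.25 nM, by 0.35 (limma adjusted p = 0.0211), and lay at 0.13 at 0.5 nM (limma adjusted p = 0.306). MAP3K21 rose by 0.21 at 0.25 nM and lay at 0.030 at 0.5 nM (0.12, past the threshold, as deposited, and -0.037 after quantile normalization). Its signal was low (4.88 in control). MAP3K10 passed at neither dose, at -0.072 and -0.039, and lay at 0.017 and 0.12 as deposited, and at 0.0039 at 0.25 nM after quantile normalization. MAP3K11 thus had the lowest difference of the 6 listed and measured mixed-lineage kinases at both doses, and the list may not hold the whole family. The differences between the genes were not tested.

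Of the TAO kinases, TAOK2 passed at neither dose, at 0.077 and 0.029, with a control SD of 0.23. TAOK3 rose by 0.15 at 0.5 nM (limma adjusted p = 0.0402) and lay at -0.0052 at 0.25 nM, or 0.15 as deposited and 0.027 after quantile normalization. Of the p21-activated kinases, PAK2 passed at neither dose, at 0.015 and 0.025. PAK5, which is mainly neuronal, had low signal (4.38 at 0.5 nM, 3.96 at 0.25 nM and 4.04 in control). Its differences were 0.34 and -0.078, both past the threshold, and the second passed as higher, at 0.076, as deposited. Of the other measured proteins of the MTOR family, ATR, the replication stress kinase, fell at both doses. Its differences were -0.44 at 0.5 nM (limma adjusted p = 1.30e-08) and -0.16 at 0.25 nM (limma adjusted p = 2.65e-06), the reverse of the order of MTOR, and the second was -0.0051 as deposited (limma adjusted p = 0.124). TRRAP, a scaffold of histone acetyltransferase complexes, missed the threshold at 0.12 and 0.056, and passed as deposited, at 0.21 at each dose. By limma none of these 11 relatives passed the group-level test (adjusted p from 0.820 to 0.996, and 0 at an unadjusted p under 0.05).

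**Figure D4:**
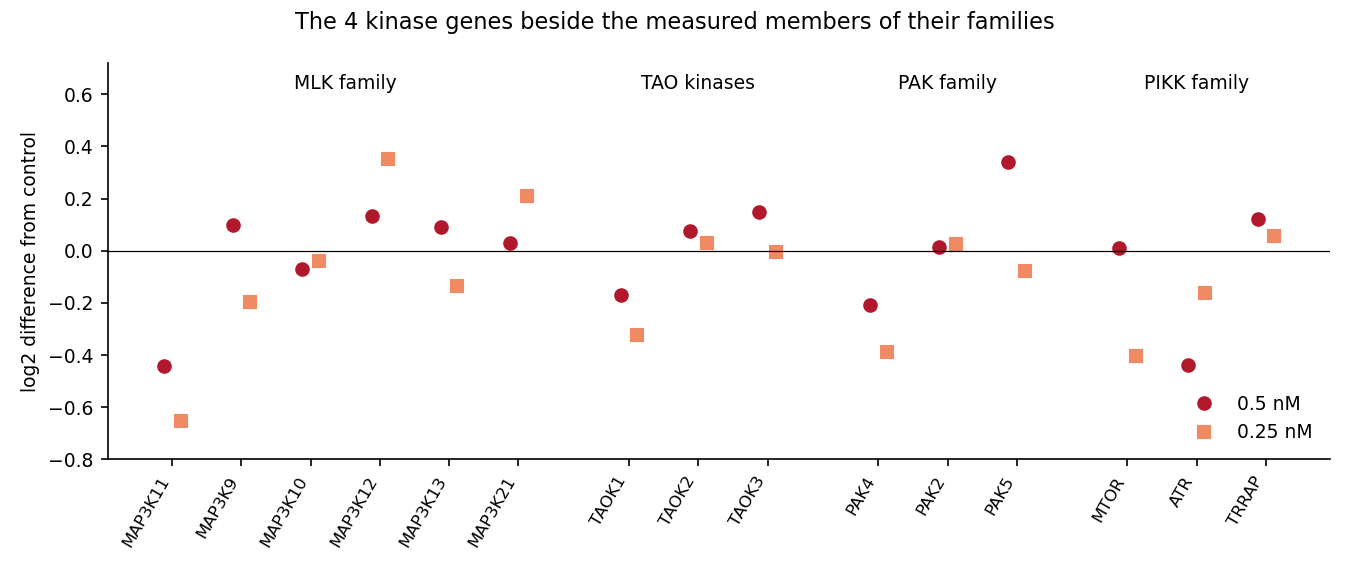
Log2 difference from control (vertical axis, arrays shifted to the same median) at 0.5 nM and 0.25 nM for the 4 kinase genes and the listed members of their families that were measured. MAP3K11, TAOK1 and PAK4 lie below the relatives shown at both doses, and MTOR lies below ATR and TRRAP at 0.25 nM and between them at 0.5 nM.

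The pathways around the kinases were read from lists chosen with earlier results known. As deposited, each difference is higher by about 0.089 at 0.5 nM and 0.16 at 0.25 nM, which turned the sign of 11 and 26 of the 102 listed genes. The balance of lower and higher calls in a list therefore depends on the shift, and the counts as deposited follow each list's counts. Over all genes the shifted arrays gave 29.8% lower and 33.2% higher at 0.5 nM and 33.9% lower and 30.3% higher at 0.25 nM, and the deposited values 20.1% lower and 45% higher at 0.5 nM and 17.1% lower and 50.7% higher at 0.25 nM. Of the route from the mixed-lineage kinases to JNK and p38, 19 of 22 listed genes were measured. At 0.5 nM 5 passed as lower, 9 as higher and 5 missed the threshold, with a median difference of 0.086 against 0.011 over all genes. At 0.25 nM 6 passed as lower and 6 as higher, with a median of -0.021 against -0.020. As deposited, 2 passed as lower and 11 as higher at 0.5 nM, and 4 as lower and 11 as higher at 0.25 nM. JUN, the transcription factor that JNK phosphorylates, was the lowest of the list, at -0.54 at 0.5 nM (limma adjusted p = 0.0915) and -0.70 at 0.25 nM (limma adjusted p = 0.0384, or 0.104 as deposited). Its SDs were 0.14 at 0.5 nM, 0.38 at 0.25 nM and 0.38 in control. MAPK10, the neuronal JNK, was the highest, at 0.65 and 0.61, with low signal (3.35 in control). MAP2K4, a substrate of MAP3K11, fell by 0.23 at 0.5 nM (limma adjusted p = 0.000901) and lay at -0.021 at 0.25 nM, or 0.14, past the threshold, as deposited and 0.013 after quantile normalization.

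Of the TAO kinases and the Hippo core, 11 of 13 were measured. At 0.5 nM 1 passed as lower and 3 as higher (median 0.053), and at 0.25 nM 1 as lower and 4 as higher (median -0.0052). As deposited, 1 passed as lower and 5 as higher at each dose. STK38L, a kinase of the NDR family, was the gene that passed as lower at both doses, at -0.56 and -0.55. STK3, the Hippo kinase MST2, was the highest at 0.5 nM, where it rose by 0.76, and rose by 0.22 at 0.25 nM. STK3 had a mean level of 5.65 over all arrays, below the median gene at 6.25. STK38, also of the NDR family, was the highest at 0.25 nM, at 0.26.

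Of the genes around PAK4, 15 of 23 were measured. At 0.5 nM 5 passed as lower and 7 as higher (median 0.051), and at 0.25 nM 7 as lower and 5 as higher (median -0.078). As deposited, the balance at 0.25 nM turned, with 4 lower and 8 higher at each dose. RHOQ, a GTPase close to CDC42, was the lowest at 0.5 nM, at -0.36, and fell by 0.12 at 0.25 nM, or lay at 0.034 as deposited (limma adjusted p = 0.297). CFL1, the actin-severing cofilin that LIM kinases phosphorylate, was the lowest at 0.25 nM, at -0.54, and lay at 0.070 at 0.5 nM. The row of CFL1 had a mean level of 5.65 over all arrays, below the median gene at 6.25. RHOJ, another relative of CDC42, was the highest at both doses, at 0.43 and 0.48, with a control SD of 0.15. LIMK1, which PAK4 phosphorylates, fell by 0.19 at 0.5 nM (limma adjusted p = 0.000118) and by 0.26 at 0.25 nM (limma adjusted p = 1.83e-05). LIMK2 fell by 0.18 and by 0.38, and at 0.5 nM it missed the threshold as deposited (limma adjusted p = 0.270).

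Of the other subunits and partners of the MTOR complexes, 6 of 11 were measured. At 0.5 nM 2 passed as lower and 3 as higher (median 0.12), and at 0.25 nM 4 as lower and 2 as higher (median -0.11). As deposited, 1 passed as lower and 4 as higher at 0.5 nM, and the balance at 0.25 nM turned, with 1 lower and 3 higher. AKT1S1, an inhibitory subunit of mTORC1, fell by 0.27 at 0.5 nM and by 0.47 at 0.25 nM. DEPTOR, an inhibitor of both complexes, rose by 0.35 at 0.5 nM and fell by 0.30 at 0.25 nM, where 2 arrays had a value and the call was lost as deposited (limma adjusted p = 0.130). MAPKAP1, a subunit of mTORC2, rose by 0.22 and by 0.27, while PRR5L, another mTORC2 partner, rose by 0.19 at 0.5 nM and passed as lower at 0.25 nM, at -0.044, but as higher, at 0.11, as deposited. TTI1 and TTI2 help to assemble MTOR and related kinases. TTI1 fell by 0.23 and by 0.17, and passed at neither dose as deposited. TTI2 lay at 0.056 at 0.5 nM, or 0.14 and past the threshold as deposited, and rose by 0.23 at 0.25 nM.

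Of the regulators upstream of MTOR, 20 of 26 were measured. At 0.5 nM 4 passed as lower and 4 as higher (median 0.051), and at 0.25 nM 5 as lower and 0 as higher (median -0.038). As deposited, 3 passed as lower and 7 as higher at 0.5 nM, and at 0.25 nM 2 as lower and 8 as higher, so that the one-sided count there rests on the shift. LAMTOR4, part of the lysosomal scaffold of amino acid sensing, was the lowest at 0.5 nM, at -0.62, and fell by 0.21 at 0.25 nM, or lay at -0.051 as deposited (limma adjusted p = 0.155). RRAGD, a Rag GTPase on that scaffold, was the lowest at 0.25 nM, at -0.38, and lay at -0.41 at 0.5 nM. SESN2, a leucine sensor, was the highest at both doses and missed the threshold, at 0.20 and 0.22. TSC2, which restrains mTORC1 through RHEB, fell by 0.36 at 0.5 nM and by 0.33 at 0.25 nM.

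Of the substrates and effectors of MTOR, 13 of 16 were measured. At 0.5 nM 6 passed as lower and 3 as higher (median -0.15), and at 0.25 nM 5 as lower and 5 as higher (median -0.044). As deposited, 4 passed as lower and 4 as higher at 0.5 nM, and 2 as lower and 6 as higher at 0.25 nM. MAF1, the repressor of RNA polymerase III, was the lowest, at -0.45 at 0.5 nM and -0.54 at 0.25 nM. EIF4B, an initiation factor, was the highest at 0.5 nM, at 0.19, and LPIN1, a phosphatidate phosphatase, the highest at 0.25 nM, at 0.27. EIF4EBP1, the translation repressor that mTORC1 inactivates, passed at neither dose, at 0.017 and -0.052, or 0.10 at 0.25 nM as deposited. By limma no gene of these pathway lists passed the group-level test, with 1 of 19, 1 of 11, 2 of 15, 1 of 6, 2 of 20 and 2 of 13 at an unadjusted p under 0.05. MAP2K4, LIMK1, LIMK2, TSC2 and EIF4EBP1 were named for their role after their values were seen.

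The genes whose pattern over the arrays was most like that of each kinase were found by the root mean square difference of centred levels, among genes at or above the median level of 6.25. For MAP3K11 over 9 arrays they were MCCC2, a subunit of the enzyme of leucine breakdown (0.033), TRIP13, an ATPase of the spindle checkpoint (0.033), and ACAT1, a mitochondrial thiolase (0.044). For TAOK1 they were RBM7, an RNA-binding protein (0.023), RDH13, a retinol dehydrogenase (0.024), and ETNK1, ethanolamine kinase (0.029). For PAK4 over 8 arrays they were DDX41, a helicase (0.062), RAD21, a cohesin subunit (0.064), and RBBP8NL (0.065). For MTOR over 9 arrays they were HOMEZ, a homeobox protein (0.016), PFDN4, a prefoldin subunit (0.022), and C14orf93 (0.022). MCCC2 lay at -0.52 at 0.5 nM and -0.69 at 0.25 nM against control, and HOMEZ at 0.011 and -0.40. Many deposited values tie exactly within a group, so such likeness rests mainly on 3 group levels.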

How the data were processed

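Per the labels' protocols, total RNA was biotin-labelled for whole-transcript arrays. The deposited values are log2 intensities made with oligo, affy and RMA, per the submitters' processing notes; versions and genome build: not given in the sources used here. Of 44629 rows, 15835 carry 1 gene symbol (several: 0), and all 15835 gene IDs matched the RefSeq table; the brightest row per symbol left 14812 genes. On 0.25 nM replicate 3, values of fewer than 10 digits were left out (19.1% of genes; 9.55 to 10.6% of values are that short in other columns). The reason is that 2351 of 2695 rows whose replicates 1 and 2 tie with a zero as first decimal match it after removal of the zero. Arrays were then shifted to the same median over genes measured on all of them.

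Groups were compared with limma 3.58.1 in R 4.3.3, two-sided, with Benjamini-Hochberg adjustment over all genes at 0.05: a mean per group over 9 arrays, and the group-level test with an intensity trend on 3 group means. Both were run on simulated data that held no tied values. That run does not show how the test on 9 arrays behaves with the ties found here. Same-numbered arrays deviated together in 9 of 9 pairs (r from 0.143 to 0.585 across genes), but this does not establish a pairing by number. No label says what a number shares, and the replicate block is given as an alternative only. The number separates replicate 1 (r from 0.495 to 0.585 with its own number, and -0.485 to -0.218 with others) but not replicates 2 and 3, whose r was 0.143 to 0.373 with the same number and 0.187 to 0.359 with the other. Genes named are the kinases, listed and measured members of their families and complexes, the highest and lowest of each list, a few named for their role, and the 3 nearest patterns of each kinase. Kinases, lists and tests were chosen with earlier results of these data known. Alternatives were no shift, quantile normalization, short values kept, dim genes left out, the mean of rows, the trend, the replicate block and left-out replicates.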

Additional observations from a re-analysis of the deposited data

Results flagged for a closer look

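For 3 of the 4 kinase genes the difference from control was not the same at the doses, by the limma test of 0.5 nM against 0.25 nM. The difference between the doses was 0.41 for MTOR (limma adjusted p = 2.44e-06), 0.21 for MAP3K11 (limma adjusted p = 5.54e-07) and 0.15 for TAOK1 (limma adjusted p = 0.00144). After the shift all had the lower level at 0.25 nM on 3 of 3 arrays, while as deposited the doses overlap for TAOK1. Of all genes, 62.2% passed the same test.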

How the results depend on the processing

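Across the other scalings, filters and models, MAP3K11 kept its direction and its side of the threshold in all comparisons, and so did TAOK1 and MTOR at 0.25 nM against control and at 0.5 nM against 0.25 nM. As deposited, without the shift, TAOK1 at 0.5 nM was -0.082 (also with the replicate block) and PAK4 at 0.25 nM was -0.24 (-0.27 and past the threshold with the replicate block), neither past the threshold, and MTOR at 0.5 nM passed at 0.10, with and without the replicate block. With the replicate block and the shift, PAK4 passed at -0.21 (0.5 nM against control) and 0.22 (0.5 nM against 0.25 nM); no other call of the 4 genes changed. Leaving out replicates gave -0.016 to 0.027 for MTOR at 0.5 nM, -0.45 to -0.30 for PAK4 at 0.25 nM, -0.26 to -0.11 for PAK4 at 0.5 nM and 0.14 to 0.22 for PAK4 between the doses. With dim genes left out, 3758, 3933 and 3627 genes passed for 0.5 nM against control, 0.25 nM against control and 0.5 nM against 0.25 nM, with fewer genes tested (7406). The group-level test called 18 genes, against 0 without the shift, 0 with quantile normalization, 0 without the intensity trend, 35 with short values kept, 39 with the mean of all rows and 0 to 45 with replicates left out (0 without 0.25 nM replicate 1, 7 without 0.5 nM replicate 1, 11 without 0.25 nM replicate 2, 31 without control replicate 1, 43 and 45 without 0.5 nM replicates 2 and 3, and 1 without replicate 1 of every group); the 4 kinase genes did not pass in any of these settings. The cause of these changes was not tested.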
